A study of Danio rerio with 16 samples.

Results

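Cluster 1 was the smallest of the 10 clusters into which the cells of dissociated adult zebrafish testes were grouped after scRNA-seq. Its members here were all 2265 transcripts that the authors' deposited sheet for cluster 1 listed, of 4916 transcripts listed in any of the 10 sheets (46.1%). For each transcript the sheets gave 2 shares, the percentage of cells of the cluster in which it was found and the percentage of all other cells in which it was found. The shares of different sheets fitted together when each cluster was set against all other cells of a common set, and they then placed 4.48% of cells in cluster 1. No other reading was fitted. The fit cannot show whether that set pooled the cells of control and TCDD-exposed testes, as was taken here. The study's methods instead describe the sheets as a comparison of conditions within each cluster, so this reading rests on the shares themselves. In the sheet of cluster 2 the fold change was the same in all 2014 rows, but its shares fitted those of the other sheets to within 0.0792 percentage points (1990 transcripts), and only shares were used. These shares therefore describe cluster 1 and carry no test, since the cells were clustered on the same transcripts. Of the 2265 transcripts, 1937 (85.5%) could be given a gene name, and 10 gene names belonged to more than 1 listed transcript.

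The cells came from fish of 1.5 years of age that had been exposed for 1 h at 3 and again at 7 weeks post-fertilization (wpf) to TCDD (dioxin) at 50 pg/ml or to the vehicle, 0.1% DMSO. The counts of all cells were summed for each library, giving pseudo bulk-seq of control testes (CP, n = 3) and TCDD testes (TP, n = 2), and the rest of each suspension, from both testes, was lysed for bulk-seq (CB, n = 3, and TB, n = 2). In control fish of 1 year of age, a dissociated testis (CD, n = 3) was set beside the other, undissociated testis of the same fish (CI, n = 3). The vehicle exposure, 0.1% DMSO for 1 h at 3 and 7 wpf, was taken to hold for these fish as well. All suspensions had been digested with collagenase and freed of dead cells, and about 5000 cells were loaded for each scRNA-seq library. Only sums over all cells were used for CP and TP, so no value below is a TCDD effect within cluster 1. A lower sum in such libraries cannot be told apart as fewer cells of a type or less RNA per cell. The study reported that sperm and spermatids made up a smaller share of the clustered cells after TCDD exposure. It reported a larger share of spermatogonia and early spermatocytes, but no change in the proportion of spermatogonial stem cells. In intact tissue it found a smaller loss of healthy sperm cells than in scRNA-seq. It assumes that dissociation killed many of the sperm cells missing from scRNA-seq. The part of these shifts in cell shares in the sums was not tested here. The exposures were done as 3 successive experiments, and which library belonged to which of them was not given in the sources used here. Whether a library came from 1 fish or from several was given only for the CD and CI testes, and p-values measure the spread between these libraries.

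In the vertebrate testis, spermatogonia divide by mitosis, spermatocytes pair their chromosomes and pass through meiosis, and spermatids build the flagellum and condense their nuclei to become sperm. Spermatogonia need RNA-binding proteins such as Dnd1, which protects germ cell mRNAs, and the piRNA pathway, in which Piwi proteins and Tudor domain proteins silence transposons. Synaptonemal complex proteins mark meiotic prophase, and axonemal proteins mark spermatids.

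Total counts ranged from 3490409 to 9987998 in CP and TP, from 4828801 to 36172885 in CB and TB, and from 7968350 to 29144951 in CD and CI. On the first principal component, the CP and TP libraries separated by exposure (85.5% of the variance). In the bulk-seq libraries of the same fish, TB replicate 2 stood apart with a score of 115.2 against −32.3 to −20.1 for the others, and it was also the shallowest. Among the 1-year testes, CI replicate 2 stood apart with a score of 96.0 against −52.8 to 12.7.

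Most transcripts listed for cluster 1 were detected more widely inside it than outside. A transcript was found in more cells of cluster 1 than of the other cells in 1906 of 2265 cases (84.2%), in fewer in 358 cases, and in equal shares in 1 case. The corresponding percentage for the other 9 clusters was 24.2% to 60.6%. The median listed transcript was found in 58.0% of cells of cluster 1 and in 21.0% of other cells. In 1348 cases (59.5%), the transcript was found more often in cluster 1 and its share there was the highest among the sheets that listed it. Shares rise with the amount of RNA captured per cell. The depth per cell was not analysed here, so a wider detection is not by itself a higher level.

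**Figure D1:**
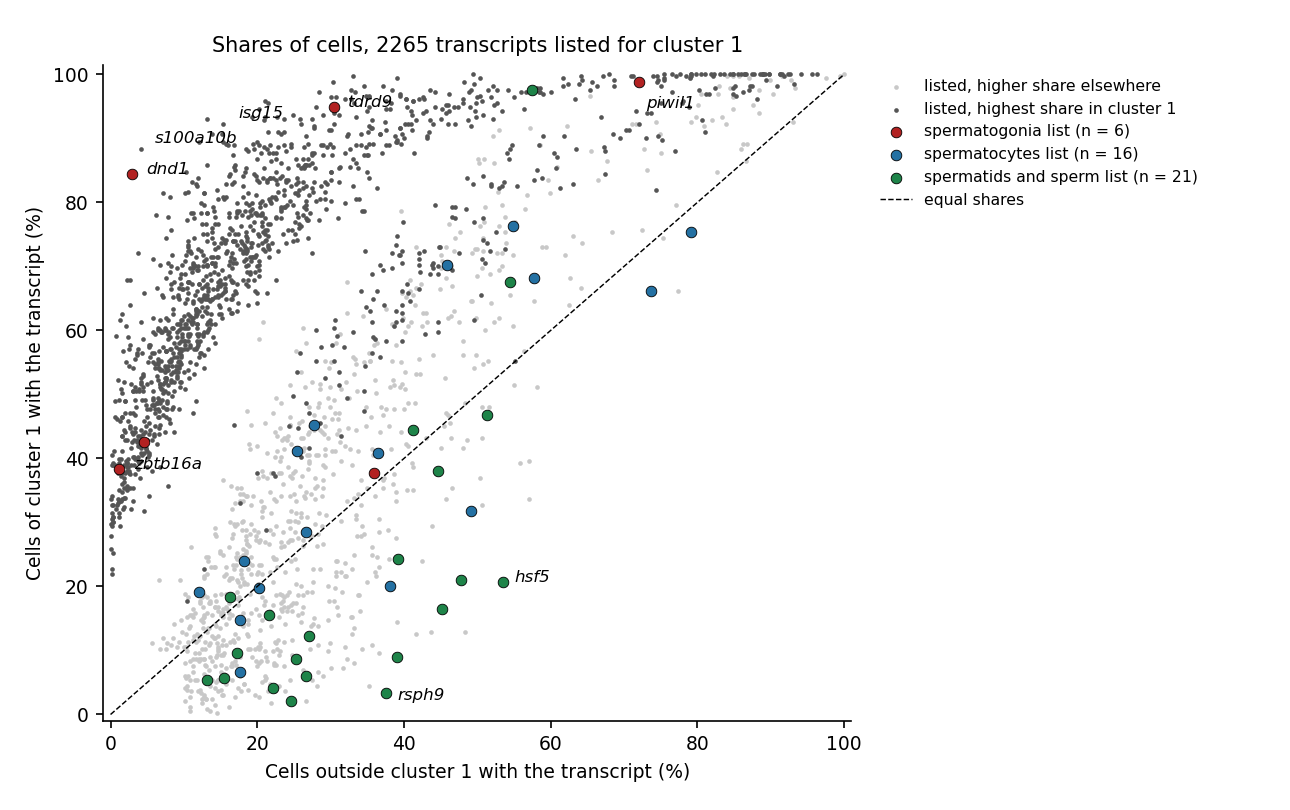
Each point is 1 of the 2265 listed transcripts, by the percentage of cells outside cluster 1 (horizontal) and inside cluster 1 (vertical) in which it was found, with the dashed line at equal shares. The 6 spermatogonial markers lie on or above the line, whereas 17 of 21 markers of spermatids and sperm lie below it; dark points are transcripts whose highest share was in cluster 1, and most of them form the upper band.

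Among markers of testis cell types, those of spermatogonia led in cluster 1. All 6 spermatogonial markers that appeared in any sheet were listed for cluster 1, each in more of its cells than of the others, with a median difference of 37.65 percentage points. Their median shares were 63.5% and 17.45%. Of all 2265 listed transcripts, 84.2% were in excess too, at medians of 58.0% and 21.0%. An excess of this size is therefore not particular to these markers within the sheet. The rest of the marker list, among it nanos2, gfra1a, ddx4 and dazl, was in no sheet. The RNA-binding protein gene dnd1 was found in 84.4% of cells of cluster 1 and in 2.9% of other cells. The Tudor domain gene tdrd1 was found in 42.6% against 4.5%, and zbtb16a, the gene for the stem cell factor Plzf, in 38.4% against 1.2%. These 3 genes were listed in no other sheet. The helicase gene tdrd9 was found in 94.9% of cells of cluster 1, in 58.2% of cluster 2 and in 63.0% of cluster 3, and in 0.9% of cluster 7. The Piwi gene piwil1 was more widely spread, with 98.8% of cells in cluster 1, 95.8% in cluster 2, 95.6% in cluster 3 and 11.9% in cluster 10. The exception was the cell cycle factor gene e2f5, whose shares of 37.8% and 35.9% were close to each other and whose highest share was 71.8% in cluster 5. On these markers cluster 1 is called spermatogonia-like below.

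Meiotic markers were present in cluster 1 without leading it. Of 20 spermatocyte markers in any sheet, 16 were listed for cluster 1, with 9 found in more of its cells and 7 in fewer, and their median share was 36.3% in cluster 1 and 32.15% elsewhere. In cluster 5, by contrast, 15 of 17 listed markers were found in more cells, with a median share of 54.9%. The synaptonemal complex gene sycp1 was found in 68.2% of cells of cluster 1, above 17.6% in cluster 2 and 18.2% in cluster 3 and below 81.9% in cluster 5, and it was found in all cells of cluster 7. Its partner sycp3 was found in 66.1% of cells against 73.7% elsewhere. The recombinase gene dmc1 was found in 31.8% against 49.2%, and the meiotic cohesin gene rec8b in 20.1% against 38.1%.

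Markers of spermatids and sperm were mostly depleted. Of 26 in any sheet, 21 were listed for cluster 1, with 17 found in fewer of its cells. Their median share was 15.6% in cluster 1, where clusters 2, 3 and 4 had 6.35%, 5.9% and 6.0% over the markers listed there and clusters 7 and 8 had 77.8% and 85.05%. The radial spoke gene rsph9 was found in 3.3% of cells of cluster 1 against 37.6% of other cells, and in 98.9% of cluster 8. The sperm fusion gene izumo1 was found in 6.0% against 26.6%. The glycolytic gene gapdhs ran the other way, with 97.6% against 57.4%, and it was also frequent in clusters 2 and 3 (84.7% in each). Cluster 1 thus held late markers in somewhat more cells than clusters 2 to 4 did and in far fewer than clusters 7 to 10.

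Somatic markers were nearly missing from the cluster 1 sheet, as from the other sheets. No marker of Sertoli, Leydig, smooth muscle, endothelial or red blood cells was listed there. This sets cluster 1 little apart, since only 1 Sertoli cell and 1 red blood cell marker and 0 of the other 3 types appeared in any of the 10 sheets. Every transcript listed for cluster 1 was found in at least 10.1% of cells inside or outside it, so that an unlisted transcript is not an absent one. Of the leukocyte markers, 3 were listed for cluster 1. The antigen presentation genes cd74a and cd74b, which encode the invariant chain, were found in 44.4% and 34.2% of cells of cluster 1 against 5.4% and 5.3% elsewhere. The recombination gene rag2 was found in 4.8% against 21.8%, with 96.3% in cluster 8. The defining leukocyte genes ptprc, coro1a, lcp1 and mpeg1.1 were not listed in any of the 10 sheets, so their absence says nothing particular about cluster 1. The part of leukocytes in the cd74a and cd74b shares was not tested.

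The transcripts with the largest excess in cluster 1 were a mixed group of growth, translation and signaling genes. The calcium-binding protein gene s100a10b was found in 88.3% of its cells against 4.1% of others and was listed in no other sheet. The largest excess after s100a10b and dnd1 was that of c1qbp, the gene for a mitochondrial matrix protein, in 93.1% against 13.2%, followed by the elongation factor gene tcea2 (89.5% against 12%). Next came the alpha-tubulin gene tuba8l2 (90.7% against 13.9%), the ubiquitin-like gene isg15 (92.2% against 15.4%), the translation repressor gene eif4ebp3 (90.7% against 15.2%) and the nucleolar GTPase gene gtpbp4 (95.8% against 21.1%). The largest deficits belonged to cilium and spermatid genes, led by cfap299 (12.9% against 48.3%), rsph9 and the germ cell heat shock factor gene hsf5 (20.7% against 53.5%). Of the 358 transcripts found less often in cluster 1, 289 had their highest share in clusters 7 to 10.

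Protein synthesis genes were widely detected, in a sheet where 84.2% of all 2265 listed transcripts were in excess. The sheet listed 49 ribosomal protein transcripts, all found in more cells of cluster 1, and the median one was found in all of its cells and in 84.4% of the others. This was not particular to cluster 1, since clusters 2, 3 and 4 listed 76, 59 and 64, nearly all in excess, at medians of 99.7%, 99.6% and 99.5%. All 27 listed translation factors were also found more often, at a median of 90.7% against 36.7%, where cluster 2 listed 30 at a median of 64.1%. Of 2 genes for proteins of the nucleolus, where ribosomes are assembled, the nucleophosmin gene npm1a was found in 99.7% of cells of cluster 1, 88.5% of cluster 2, 78.9% of cluster 3 and 8.0% of cluster 4. The fibrillarin gene fbl, the other, was found in 90.7%, 54.9%, 58.8% and 10.5% of the same clusters. The 2 listed genes of the myc family, myca and mych, which encode growth-promoting transcription factors, were found in 66.4% and 63.4% of cells of cluster 1 against 9.9% and 16.2% of others.

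Energy and protein turnover genes followed the same pattern, where 84.2% of all 2265 transcripts listed for cluster 1 were in excess. All 36 listed nuclear genes of oxidative phosphorylation were found in more cells of cluster 1, at a median of 93.85% against 60.3%. Most were in excess in clusters 2 and 3 as well (32 of 40 and 32 of 38), but only 3 of 55 in cluster 10. All 19 proteasome transcripts were found in more cells of cluster 1, at 80.8% against 41.6%. Clusters 6 and 7 had 18 of 20 and 25 of 28 in excess, and cluster 2 had 6 of 13. The 19 transcripts of cluster 1 included psme2, which encodes a subunit of the proteasome activator PA28. They also included psmb12 and psmb9a, which encode subunits of the immunoproteasome. psme2 was found in 81.7% against 10.6% and psmb12 in 80.8% against 8.1%, and neither was listed in another sheet. psmb9a was found in 71.5% against 11.6%. Other genes of interferon response and antigen presentation were listed as well, and they were picked after their values were seen. The interferon regulatory factor gene irf3 was found in 78.4% against 11.3% and the light chain gene b2ml of class I molecules in 93.1% against 25.8%.

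Cell cycle genes are set beside all 2265 transcripts listed for cluster 1, of which 84.2% were in excess, at medians of 58.0% and 21.0%. Of 16 listed DNA replication genes, 15 were found in more cells of cluster 1, at a median of 76.15% against 27.9%, but clusters 2 and 3 each listed 27. The sliding clamp gene pcna was found in 79.3% of cells of cluster 1, below 87.1% in cluster 2 and 93.7% in cluster 3, whereas the helicase gene mcm7 was found in 93.1%, 83.2% and 82.3%. The replication-dependent histone gene hist1h2a6 was found in 46.5% of cluster 1, 15.9% of cluster 2 and 93.6% of cluster 3. Of 23 mitosis and kinetochore transcripts, 17 were found in more cells of cluster 1, by a small margin (median 36.9% against 31.4%). The mitotic kinase gene plk1 was found in 47.7% of cluster 1 and in 77.6% and 92% of clusters 7 and 8. Cluster 3 was close to cluster 1 in this list, with 13 of 18 in excess (36.85% against 32.9%), whereas cluster 2 had none of its 21 listed mitosis transcripts in excess.

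The piRNA list overlapped the spermatogonial list in 4 genes (piwil1, tdrd1, tdrd9 and dnd1). Of 11 piRNA pathway and germ granule genes in any sheet, 10 were listed for cluster 1, all found in more of its cells, at a median of 88.0% against 29.2%. Clusters 2 and 3 listed 5 each. Of all 2265 transcripts listed for cluster 1, 84.2% were in excess. The germ granule gene asz1 was found in 79.0% of cells of cluster 1 and in 31.9% of cluster 5, and the RNA helicase gene ddx6 in 94.9% of cluster 1 and 52.8% of cluster 2. The nuclease gene pld6 was found in 97.6% of cells of cluster 1, 85.7% of cluster 5 and 86.2% of cluster 6. In contrast, gtsf1, a Piwi partner, was as frequent in cluster 8 (93.8%) as in cluster 1 (91.6%).

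Against single clusters, the list of cluster 1 overlapped most closely with those of clusters 2 and 3 in direction. The sheet of cluster 2 shared 1398 transcripts with it (61.7% of the cluster 1 list and 69.4% of the cluster 2 list), of which 1346 had the higher share in cluster 1, at medians of 55.3% and 26.45%. Of the 1398, 532 were in excess in both clusters and 339 in neither. The sheet of cluster 3 shared 1151 (50.8% and 66.4%), of which 990 had the higher share in cluster 1, at medians of 45.0% and 32.6%. Of the 1151, 428 were in excess in both clusters and 277 in neither. Clusters 8, 9 and 10 shared more transcripts with cluster 1 (1475, 1525 and 1468). Of those, 685, 878 and 925 were in excess in cluster 1 but not in the other cluster. With cluster 5, 780 of 1031 shared transcripts had the higher share in cluster 1. All 10 sheets listed 297 of the transcripts.

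A smaller set was close to private to cluster 1. Its sheet alone listed 433 transcripts, and 198 transcripts, called restricted here, were found in at least 50% of its cells and in under 10% of other cells. Of the restricted transcripts, 165 were in no other sheet. For 83 transcripts, 50% or more of all cells holding the transcript belonged to cluster 1. In that set dnd1 reached 57.7% and s100a10b 50.3%. The set also held the annexin gene anxa11b (found in 67.9% of cluster 1 and 2.7% of other cells), the elongation factor gene eef1a1a (67.9% and 2.3%) and the ubiquitin ligase gene fbxo32 (55.0% and 2.1%), named after their values were seen. At the other end, some transcripts listed for cluster 1 alone were common everywhere, such as the histone methylation cofactor gene dpy30 (98.8% and 74.5%).

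TCDD was then compared with control in the pseudo bulk-seq counts (TPxCP). Of the 2265 members, 2051 were in the deposited table, in which no row had fewer than 30 counts in any library. The 214 missing members were the rarer ones, with a median overall share of 4.82% of cells against 24.1% for those in the table, and they held 39 of the 198 restricted transcripts and 82 of the 83 whose cells lay mostly in cluster 1. Thus dnd1, s100a10b, tdrd1 and zbtb16a could not be followed in TPxCP. Levels are given in CPM, counts scaled to a common library total, and differences as log2 fold changes of TP over CP. A member rose or fell where edgeR's quasi-likelihood test, adjusted over the 6847 rows of the table, gave a p under 0.05. All 6847 rows passed the filter on low counts. Where alternatives are counted below for TPxCP, the one with no filter therefore repeats this fit and keeps every call.

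Over all members, 171 rose (8.34%) and 717 fell (35%) with TCDD, where over all rows 8.69% rose and 19.4% fell. In 674 members every TP library was above every CP library and in 849 every one was below, where 32.2% and 32.8% of all rows were so. DESeq2 called 307 rises and 756 falls (12.2% and 21.5% of all rows). With a log2 fold change of at least 1 and an unadjusted p under 0.01, 21 members were higher and 587 lower (1.37% and 13.8% of all rows). The median log2 fold change was 0.02 for the members and 0.03 for all rows. With the library number as a block, 392 rose and 758 fell. The count of rises rested on single libraries, from 0 without TP replicate 2 and 7 without TP replicate 1 to 571 without CP replicate 2. Without CP replicate 3 it was 23. The falls numbered 335 without TP replicate 2 and 446 without TP replicate 1.

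The direction followed the cluster in which a member was most frequent. The shares and these counts both come from the scRNA-seq cells, so this grouping is a description and not a test. Of 1163 members with their highest share in cluster 1, 151 rose (13%) and 70 fell (6.02%), with a median log2 fold change of 0.43. Over all rows, 8.69% rose and 19.4% fell, at a median of 0.03. The 119 members most frequent in cluster 3 behaved alike, with 19 rising and 0 falling and a median of 0.32. Members more frequent in later clusters went down, with 25 of 37 falling for cluster 6, 248 of 281 for cluster 7 and 353 of 378 for cluster 8, at medians of −0.83, −1.71 and −2.27, and none of these 3 sets had a rise. Even among members found more often in cluster 1 than elsewhere, those with a still higher share in another cluster fell in 382 of 555 cases (68.8%), at a median of −1.17. The 332 members found in fewer cells of cluster 1 fell in 265 cases (79.8%), at a median of −2.80. These fold changes are relative to the library total, so a fall of abundant late transcripts and a rise of the others are not independent of each other.

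**Figure D2:**
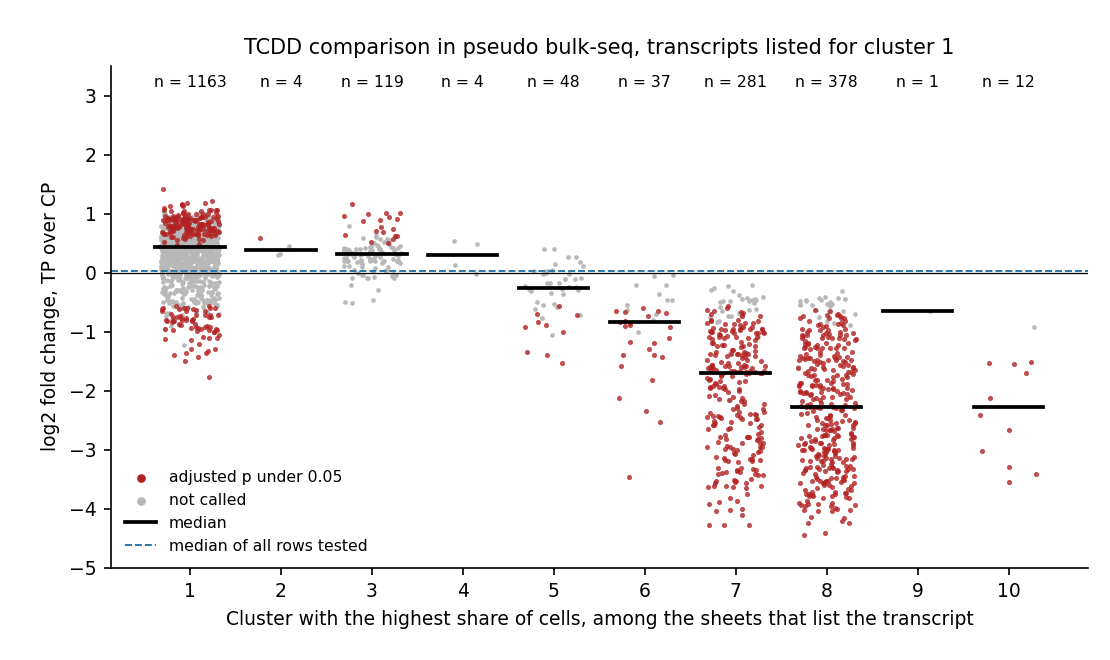
Log2 fold changes of TP over CP in pseudo bulk-seq of the members in the table, grouped by the cluster in which the share of cells was highest. The median of each group is a line, and the median of all rows tested is a dashed line. The medians run from 0.43 for cluster 1 through −0.83 for cluster 6 to −2.27 for cluster 8; the 4 members with no excess in cluster 1 and no higher share in another sheet are left out.

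Seen as a share of all counts, the 1163 members most frequent in cluster 1 made up 26.6%, 35.6% and 30.5% of the CP libraries and 37.1% and 39.7% of the TP libraries. Both TP libraries lay above all CP libraries, with CP replicate 2 close below. The 332 members found less often in cluster 1 made up 11.5%, 6.52% and 8.09% of the CP libraries and 2.48% and 2.18% of the TP libraries, so that the groups were far apart. The 159 restricted transcripts in the table made up 0.30%, 0.556% and 0.396% in CP and 0.563% and 0.607% in TP. For these, CP replicate 2 and TP replicate 1 were nearly equal. Of the restricted transcripts, 10 rose (6.29%) and 2 fell (1.26%), both below the 8.69% and 19.4% of all rows, and 142 of 159 had a positive fold change (median 0.50), where 3512 of 6847 rows did over the whole table.

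Spermatogonial markers gave 1 call. The 3 listed markers in the table had a median log2 fold change of 0.50. The level of tdrd9 was 110.0, 184 and 137 CPM in CP and 229 and 276 CPM in TP. Both TP libraries lay above every CP library, and tdrd9 rose by 0.81 ± 0.24 on the log2 scale (SE, edgeR adjusted p = 0.0418), a call kept in 6 of 9 alternatives (adjusted p up to 0.246). The level of piwil1 was 852, 1129 and 1107 CPM in CP and 1521 and 1398 CPM in TP. The groups did not overlap, but the difference of 0.50 ± 0.18 did not pass (adjusted p = 0.0678). The third marker, e2f5, was at 217, 156 and 189.6 CPM in CP and 174 and 135 CPM in TP, and its groups overlapped. Over all 6 markers of the list in the table, summed levels were 1233 to 1514 CPM in CP and 1869 to 1988 CPM in TP. The 2 Sertoli cell markers in the table moved in the same direction, with sums of 319 to 369 CPM in CP and 425 to 483 CPM in TP, and their part in the member values was not tested. No gene of the Leydig, endothelial and red blood cell lists was in the table.

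Meiotic and spermatid members fell. Of 16 spermatocyte markers, 10 fell and 0 rose, at a median of −0.90. Over all 23 of that list in the table, 10 fell and 0 rose (median −0.47), where 19.4% of all rows fell. The level of sycp1 was 3297, 1990.3 and 2319.9 CPM in CP and 338 and 167 CPM in TP. All CP libraries exceeded both TP libraries several-fold, and the difference was −3.33 ± 0.38 (adjusted p = 0.00191). The lateral element gene sycp3, in contrast, was at 1564, 1241 and 1704 CPM in CP and 1321 and 1211 CPM in TP. Its TP values lay at the lower end of the CP range, and the difference of −0.25 did not pass (adjusted p = 0.317). Of 20 spermatid and sperm markers, 19 fell, at a median of −3.32, and the exception was gapdhs with a log2 fold change of 0.34. The level of izumo1 was 408, 196 and 234 CPM in CP and 16.7 and 13.5 CPM in TP. The groups were far apart, and izumo1 fell by 4.21 ± 0.39 on the log2 scale (adjusted p = 0.00166). The axonemal gene spag6 was at 813, 388 and 532 CPM in CP and 48.6 and 33.4 CPM in TP and fell by 3.82 ± 0.38 (adjusted p = 0.00169), again with no overlap.

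**Figure D3:**
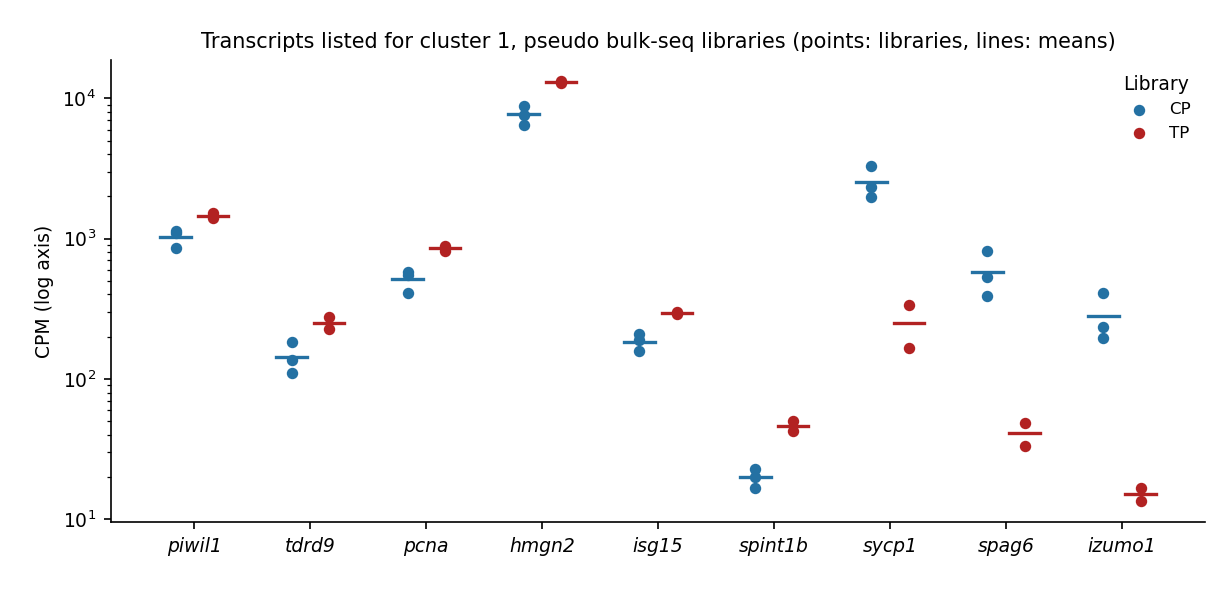
Levels in CPM on a log axis of members in the 3 CP and 2 TP libraries, 1 point per library. Genes most frequent in cluster 1 or in clusters 2 and 3, such as tdrd9 and pcna, have both TP points above the CP points, whereas sycp1, spag6 and izumo1 have both TP points below 340 CPM and under all CP points.

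Replication and mitosis went apart with TCDD. Over the whole table, 8.69% of rows rose and 19.4% fell. Of 16 replication genes listed for cluster 1, 5 rose (cdc6, pcna, mcm2, mcm7 and orc3) and 1 fell (cdc45), at a median of 0.52. Over all 49 replication genes in the table, 17 rose and 1 fell, at a median of 0.43, so the rise was not particular to the members. The level of pcna was 408, 579 and 552 CPM in CP and 814 and 889 CPM in TP. The groups did not overlap, and the rise was 0.73 ± 0.19 (adjusted p = 0.029), kept in 6 of 9 alternatives. The replicative helicase gene mcm7 was at 237, 279.7 and 271 CPM in CP and 444 and 489 CPM in TP, and it rose by 0.83 ± 0.16 with both TP libraries above all CP libraries (adjusted p = 0.0095). Of 23 mitosis transcripts, 18 fell and 0 rose, at a median of −0.89, among them the checkpoint gene mad2l1 (−1.07) and the securin gene pttg1 (−1.28). Over all 46 of that list in the table, 20 fell and 0 rose, at a median of −0.63. In the shares of cells, mad2l1 and pttg1 were most frequent in cluster 7 (96.6%) and cluster 8 (98.6%).

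Protein synthesis genes listed for cluster 1 gave few calls with TCDD. Of 49 ribosomal protein transcripts, 2 rose and 1 fell, although 46 had a positive fold change (median 0.40). Over all 80 in the table, 3 rose and 1 fell (median 0.37), where 8.69% of all rows rose and 19.4% fell. Of 26 translation factors, 1 rose, the elongation factor gene eef2b (0.66, adjusted p = 0.0395, kept in 5 of 9 alternatives), and 3 fell. Over all 60 translation factors in the table, 9 rose and 4 fell (median 0.32). The nucleolar gene npm1a was at 275, 581 and 446 CPM in CP and 732 and 824 CPM in TP. Both TP libraries were higher, but the difference of 0.84 ± 0.29 did not pass (adjusted p = 0.0659). The level of mych was 36.9, 65 and 45.1 CPM in CP and 86.1 and 98.6 CPM in TP, and it rose by 0.90 ± 0.26 (adjusted p = 0.0379), with no overlap, kept in 6 of 9 alternatives. For myca the difference was 0.50 and did not pass (adjusted p = 0.144). The tubulin gene tuba8l2 and the matrix protein gene c1qbp, both near the top by share, did not pass either (0.60 and 0.56, adjusted p = 0.249 and 0.372).

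Genes for turnover, energy and stress are set beside the whole table, in which 19.4% of rows fell and 8.69% rose. Of 18 proteasome transcripts, 6 fell and 0 rose, at a median of −0.39, and the immune subunit genes psme2 and psmb12 had log2 fold changes of −0.12 and 0.40 without a call. Of 34 oxidative phosphorylation transcripts, 2 rose and 6 fell, with the largest called fall in cox5b2, a subunit of cytochrome oxidase (−1.58). Of 20 chaperone genes, 4 rose (tcp1, hspd1, hspa9 and cct5) and 5 fell. Of 5 apoptosis genes, 3 fell, with the survival gene mcl1b at 155, 103 and 105 CPM in CP and 37 and 34.1 CPM in TP. Its groups were far apart, and the difference was −1.76 ± 0.24 (adjusted p = 0.00315). In the shares, mcl1b was found in 41.1% of cells of cluster 1 and in 66.2% of cluster 8.

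Chromatin genes were divided. Of 10 genes of the high mobility group list, 3 rose (hmgn2, hmgn1a and setb) and 2 fell (npm2b and hmgb1a). Over all 21 of that list in the table, 9 rose and 2 fell, where 8.69% of all rows rose and 19.4% fell. The nucleosome-binding gene hmgn2 was at 6506, 7662 and 8906 CPM in CP and 12954 and 13316 CPM in TP. Both TP libraries lay clearly above, with a rise of 0.77 ± 0.18 (adjusted p = 0.0191). Of 15 histone transcripts, 2 fell and 0 rose.

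Of the aryl hydrocarbon receptor (AhR) list, through which TCDD acts, cluster 1 listed only the chaperone gene hsp90aa1.2, whose protein holds the receptor in the cytosol. Its log2 fold change of −0.72 did not pass (adjusted p = 0.0746). The antigen presentation gene cd74b was at 33.1, 27.5 and 23.7 CPM in CP and 12.4 and 13.5 CPM in TP. Both TP libraries were lower, by −1.11 ± 0.22 (adjusted p = 0.0124), while cd74a was lower by −0.74 without a call (adjusted p = 0.117). Of the leukocyte list, 4 genes were in the table, with sums of 246 to 402 CPM in CP and 75.7 to 79.1 CPM in TP. Most of that was rag2, frequent in cluster 8, and without it the sums were 66.7 to 90.1 CPM in CP and 53.9 to 58 CPM in TP. The only gene of the list that was not a member, coro1a, was at 15.2 to 23.2 CPM in CP and 23.3 to 26 CPM in TP. The part of leukocytes in the cd74b value was not tested. The Piwi partner gene gtsf1 was at 581, 358 and 353 CPM in CP and 225 and 243 CPM in TP, and it fell by 0.88 ± 0.25 (adjusted p = 0.0408), with no overlap, kept in 6 of 9 alternatives.

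The largest called rises among the members were modest. The protease inhibitor gene spint1b, listed for cluster 1 alone (66.7% of its cells against 6.4%), was at 16.7, 23 and 19.9 CPM in CP and 42.3 and 50.3 CPM in TP. The TP libraries were at about the same level, well above CP, and the rise was 1.21 ± 0.21 (adjusted p = 0.00694). The lipid acyltransferase gene agpat5 was at 15.2, 26.3 and 21.9 CPM in CP and 45.9 and 47.6 CPM in TP, a rise of 1.12 ± 0.24 with no overlap (adjusted p = 0.0163). The RNA-binding protein gene hnrnpul1 was at 72.9, 115 and 122 CPM in CP and 220.3 and 245 CPM in TP, a rise of 1.17 ± 0.24, also with no overlap (adjusted p = 0.0127). The largest rise of all was that of a transcript without a gene name (1.42 ± 0.40, adjusted p = 0.0395), at 34.8, 33.3 and 20.1 CPM in CP and 44.5 and 111 CPM in TP, with the TP libraries far apart. The other rises of this rank were rrm2l (1.17), a gene for a ribonucleotide reductase subunit, akt1s1 (1.17), sypa (1.14) and another transcript without a gene name (1.17). A smaller rise was that of isg15, at 158, 208 and 188 CPM in CP and 301 and 292 CPM in TP (0.68 ± 0.17, adjusted p = 0.0263), kept in 6 of 9 alternatives. The largest falls were several times larger on the log2 scale, from −4.45 for LOC110439783 and −4.42 for ccdc166 through lrrc51, armc3 and pih1d2 (each −4.28) to ckba and pierce1 (each −4.25).

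The same exposure was compared in bulk-seq libraries that had not entered the clustering (TBxCB). Of the 2265 members, 1588 were in the table and 1579 were tested. With edgeR, 0 of 12939 rows passed in either direction (0%), and so did 0 members. At an unadjusted p under 0.05, 17 members were higher and 132 lower (574 and 575 of all rows, 4.44% each). With a log2 fold change of at least 1 and an unadjusted p under 0.01, 2 members were higher and 20 lower (0.688% and 0.611% of all rows). DESeq2 called 2 members higher, dcaf5 and zgc:158463, and 1 lower, wu:fc47e11 (0.0282% and 0.0494% of all rows). Of these, dcaf5 was at 12.6, 11 and 8.38 CPM in CB and 37.0 and 39.4 CPM in TB, so that the groups did not overlap, and its log2 fold change by DESeq2 was 1.89 ± 0.38 (adjusted p = 0.00351). The median log2 fold change of the members was −0.26, where it was −0.05 over all rows, and 1108 of 1579 members had a negative value. Leaving out TB replicate 2 gave 0 calls, whereas leaving out TB replicate 1, so that TB replicate 2 stood alone, gave 8 higher and 146 lower.

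In bulk-seq, the classes of members did not spread out as they had in pseudo bulk-seq. The median was −0.26 for members most frequent in cluster 1, −0.23 for those found in fewer of its cells and −0.23 for restricted transcripts. The restricted transcripts made up 0.519%, 0.592% and 0.467% of counts in CB and 0.620% and 0.523% in TB, with overlapping groups. Whether the TCDD effects in the 2 methods differ was not tested here.

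Of the genes missing from TPxCP, dnd1, tdrd1 and s100a10b could be followed here, and zbtb16a could not. The level of dnd1 was 61, 39.5 and 53.5 CPM in CB and 34.9 and 68.2 CPM in TB. The TB libraries lay on either side of all CB libraries, and the log2 fold change was 0.00 ± 0.37 (edgeR adjusted p = 0.997). The level of s100a10b was 21, 16.1 and 18.7 CPM in CB and 25.8 and 13.8 CPM in TB, with overlap and a log2 fold change of 0.11 ± 0.38 (adjusted p = 0.935). The gene tdrd1 was at 456, 441 and 473 CPM in CB and 288 and 633 CPM in TB, and again TB replicate 1 was the lowest library and TB replicate 2 the highest. The level of piwil1 was 647, 767 and 671 CPM in CB and 428 and 439 CPM in TB. Both TB libraries were below all CB libraries, as were 419 of all 1579 members and 16.4% of all rows, and the difference of −0.67 ± 0.26 did not pass (adjusted p = 0.553).

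Other members varied between TB libraries as well. The gene isg15 was at 43.6, 71.2 and 47.8 CPM in CB and 35 and 4.68 CPM in TB, with TB replicate 2 far below the rest, and its difference of −1.40 ± 0.67 did not pass (adjusted p = 0.56). The level of izumo1 was 184, 51.7 and 163 CPM in CB and 93.5 and 162 CPM in TB. Its groups overlapped, with CB replicate 2 the lowest (log2 fold change −0.05 ± 0.51, adjusted p = 0.979).

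**Figure D4:**
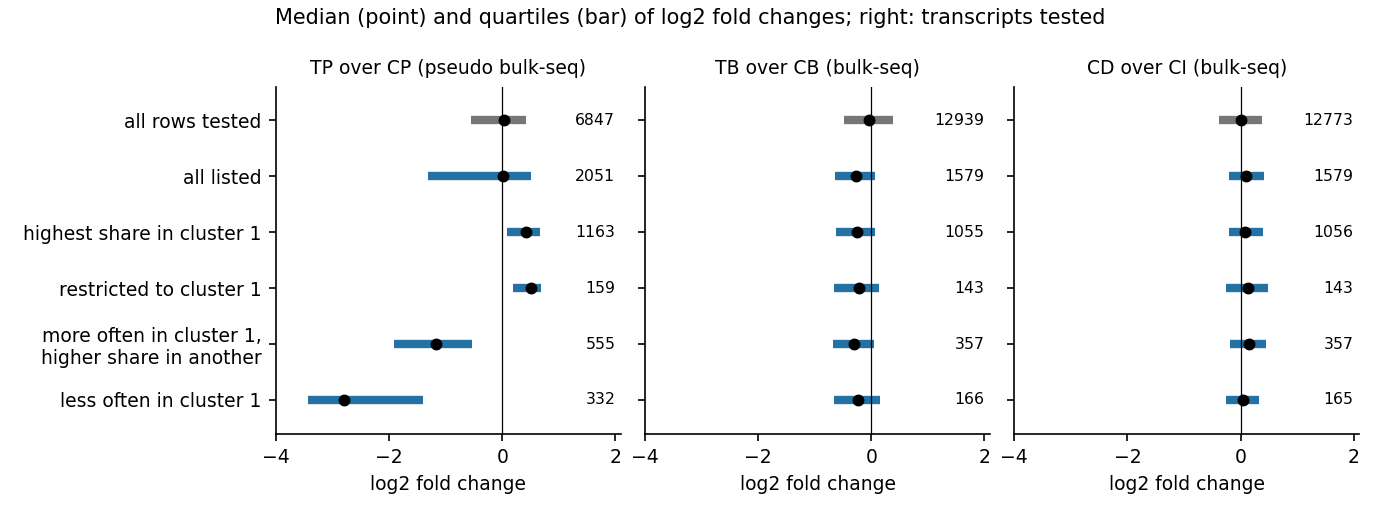
Median (point) and range between the quartiles (bar) of the log2 fold changes of the member classes and of all rows tested in TPxCP, TBxCB and CDxCI. The classes spread from −2.80 to 0.50 in TPxCP, and in TBxCB and CDxCI the class medians stay between −0.31 and 0.15.

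Dissociation, which all clustered cells had undergone, was compared with intact tissue in 1-year control testes (CDxCI). By the study's methods, intact testes were stored in the preservative RNALater, and suspensions were digested and freed of dead cells. CDxCI cannot tell these steps apart. Of the members, 1579 were tested by edgeR. Of these, 6 were higher and 22 lower in CD (0.38% and 1.39%), where 0.258% and 1.96% of all 12773 rows were, with a median log2 fold change of 0.10 for members and 0.01 for all rows. In 313 members all CD libraries were above all CI libraries and in 182 all were below (13.3% and 13.1% of all rows). DESeq2 called 45 higher and 48 lower (1.53% and 3.98% of all rows). With a log2 fold change of at least 1 and an unadjusted p under 0.01, 30 were higher and 32 lower (1.22% and 3.57% of all rows). With the fish as a block, the members called were 20 higher and 28 lower. The values of single genes given below come from the fit without this block, which leaves the pairing of the testes out. Without CI replicate 2 they were 14 and 28, and without CD replicate 1 they were 1 and 6. The members named below were chosen after their values were seen.

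Markers that stood out in cluster 1 were among those lower in dissociated testes. The level of s100a10b was 58.1, 59.1 and 56.8 CPM in CI and 17.8, 11.6 and 9.02 CPM in CD. All CI libraries were close together and above all CD libraries, and the difference was −2.18 ± 0.28 (edgeR adjusted p = 0.00237). The level of b2ml was 845, 1758 and 1164 CPM in CI and 286, 305 and 274 CPM in CD, a difference of −2.12 ± 0.25 with no overlap (adjusted p = 0.00163). The genes cd74a and cd74b fell together. cd74b was at 92.1, 235 and 122 CPM in CI and 17.2, 23 and 21.6 CPM in CD, with CI replicate 2 the highest (−2.86 ± 0.34, adjusted p = 0.00175). The lipid-binding protein gene fabp4a, found in 51.1% of cells of cluster 1 and listed for no other cluster, was at 191, 273 and 184 CPM in CI and 28.5, 29.3 and 24.8 CPM in CD. Its groups were far apart (−2.97 ± 0.23, adjusted p = 8.89e-05). The calls of s100a10b, b2ml, cd74b and fabp4a were kept in all 10 alternatives, and that of cd74a in 7.

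Somatic markers moved in the same comparison. The summed Leydig cell list was 3965 to 5690 CPM in CI and 84.0 to 278 CPM in CD, the Sertoli cell list 1840 to 2975 CPM in CI and 272 to 299 CPM in CD, and the leukocyte list 526 to 1030 CPM in CI and 224 to 315 CPM in CD. The leukocyte sum holds cd74a and cd74b, and its 19 genes that were not members summed to 138 to 166 CPM in CI and 94.2 to 117 CPM in CD. The part of these cells in the member values was not tested. In contrast, dnd1 was at 65, 68.4 and 57.4 CPM in CI and 74.9, 54.3 and 31 CPM in CD, and its overlapping groups did not pass (−0.25 ± 0.29, adjusted p = 0.702). For piwil1 the levels were 783, 549 and 703 CPM in CI and 1120.3, 1009 and 1024 CPM in CD. All CD libraries were higher, yet the difference of 0.63 ± 0.18 did not pass in the edgeR fit without the fish block (adjusted p = 0.111). Of the 53 tested transcripts with 50% or more of their cells in cluster 1, 6 were lower (11.3%) and 0 higher, at a median of −0.29. Over all rows, 1.96% were lower and 0.258% higher, at a median of 0.01.

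The 6 members higher in CD included the stress gene hsp70.3, which encodes an inducible chaperone, and cell division genes. The level of hsp70.3 was 2.12, 2.91 and 0.955 CPM in CI and 11.1, 7.71 and 7.13 CPM in CD. All CD libraries were above all CI libraries, with a rise of 2.18 ± 0.47 (adjusted p = 0.0409), and the call was kept in 5 of 10 alternatives. In the shares, hsp70.3 was found in 17.7% of cells of cluster 1 and in 10.4% of others. The cyclin-dependent kinase gene cdk2 was at 85.8, 71.6 and 76.7 CPM in CI and 171, 176 and 194 CPM in CD, with no overlap (1.21 ± 0.18, adjusted p = 0.00599), and was kept in all 10. The other 4 were rec8b, nip7, lsm8 and fbxo5, with rises of 1.12 to 1.23.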

How the data were processed

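The authors dissociated testes, prepared 10x Genomics 3′ libraries, processed them with Cell Ranger 6.01 and clustered the cells in Seurat 4.0.4. They deposited, per cluster, the share of cells (a fraction, from 0 to 1, printed here as a percent) with each transcript, and for 3 comparisons the counts per transcript, which are raw counts as deposited by the authors. The aligner's reference differed between the study's methods and the sample records and is not settled, and no coordinates were used. The authors' fold changes, p-values and scores were not used. The tables that set pseudo bulk-seq against bulk-seq were not used here (10 columns). The sample labels give the TCDD dose for control fish as well, and the exposure in the study's methods was followed.

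In TBxCB the counts ran in the opposite row order to the accessions and were turned round, after which levels correlated with those of CDxCI at 0.981 across rows, against −0.959 as deposited. Transcript accessions were matched to gene names in the RefSeq table of GRCz12tu. The TBxCB columns were matched to the groups CB and TB only, and their libraries are numbered by the column names. Each cluster's size was computed as the single value that made the overall share of each transcript agree between sheets (largest gap 0.0978 percentage points over 3694 transcripts). Doublets and cell filters could not be revisited from shares.

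Counts were tested in R 4.3.3 with edgeR 4.0.16 (filterByExpr at its defaults, TMM, robust quasi-likelihood test, Benjamini-Hochberg adjustment over all rows tested, adjusted p under 0.05), which was tested on simulated data. The alternatives were DESeq2 1.42.0, its size factors in edgeR, no filter, a replicate block (TPxCP and CDxCI), an unadjusted p under 0.01 with a log2 fold change of at least 1, and leaving out each library. In TPxCP the filter removed no row, so the fit with no filter repeats the main one there. Same-numbered CD and CI libraries are contralateral testes by the study's methods, and their deviations from the group means correlated at 0.261, 0.041 and −0.059. Single genes were named from those given by a rule: up to 3 listed members of each list by level in CP, the 8 largest changes in each direction in TPxCP with at least 10 CPM in the higher group, the calls in TBxCB, and the 8 largest differences between shares in each direction with the 10 highest shares listed in no other sheet. Others were named as contrasts or after their values were seen. The members and lists were chosen with earlier results of these data known. CPM divides by the TMM-scaled library total, so a change in some transcripts moves the others, and reads of near-identical paralogs and overlapping genes can be shared.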

Additional observations from a re-analysis of the deposited data

How the results depend on the processing

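Under the alternatives, the number of members higher in TP was 307 with DESeq2, 392 with the replicate block and 21 at an unadjusted p under 0.01 with a log2 fold change of at least 1, and it ranged from 0 to 571 when single libraries were left out; the number lower ranged from 335 to 804. In TBxCB, 2 members were higher with DESeq2 and 2 at the unadjusted threshold (0 to 8 without single libraries), and 1 and 20 were lower (0 to 146). In CDxCI, 45 were higher with DESeq2, 20 with the replicate block and 30 at the unadjusted threshold (1 to 14 without single libraries), and 48 were lower with DESeq2 (6 to 28). Restricting the sheet to transcripts in at least 25% of cells of either group left 145 found less often in cluster 1 and medians of 64.6% and 24.2%. Without the sheet of cluster 2, chosen after seeing the data, 466 transcripts were in no other sheet. Of 41 called members named in TPxCP, 29 lost the call in at least 1 alternative and 0 changed sign; with the replicate block, 2 lost it. Of 28 in CDxCI, 22 lost it at least once, 2 of them with the replicate block.

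The following differences, none of them called, changed sign when single libraries were left out: psme2 in TPxCP (−0.42 to 0.14), dnd1 (−0.50 to 0.41), tdrd1 (−0.60 to 0.47), s100a10b (−0.43 to 0.54) and izumo1 (−0.44 to 0.29) in TBxCB, and dnd1 in CDxCI (−0.57 to 0.023). In TBxCB, dnd1 was also −0.0014 with no filter, and izumo1 was 0.0032 with DESeq2 and 0.0026 with its size factors. The cause was not tested.

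In TPxCP the same numbers in both groups pair libraries only by number (2 pairs), since the sources used here tie no library to 1 of the 3 exposure experiments, with deviations that correlated at 0.258 and 0.416. No replicate block was fitted in TBxCB because its columns were matched to groups only. Members under 30 counts in a pseudo bulk-seq library could not be followed, and with 2 TCDD libraries the calls depend on each of them.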
